A study of Mus musculus with 10 samples.

Results

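Xanthine dehydrogenase (Xdh) and 5 genes of purine handling were examined in cultured mouse adipose stem and precursor cells (ASPCs). The members were the rows whose gene symbol is Xdh, Aox1, Hprt, Pnp, Ada or Nt5e. All 6 were found among the 25229 rows of the count table, and all 6 passed edgeR's filter on low counts. Xdh was chosen by its log2 fold change between FICZ and DMSO in these same libraries, so its change with FICZ is given here as a description. The closing section names a call of Xdh by DESeq2, which is not read as support because this contrast chose the gene. The others were added as steps of the same pathway, with results of these data already known.

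The cells came from WT mice. They were sorted as CD45-CD31-Pdgfra+ from the stromovascular fraction of perigonadal white adipose tissue, grown to confluence without passaging in medium with serum, FGF and ascorbate, and then given 100 nM FICZ, a tryptophan photoproduct that activates the aryl hydrocarbon receptor (AHR), or DMSO, its vehicle. RNA was taken after 6 hr. There were 5 libraries of each group, numbered 1 to 5, and each held between 38328611 and 50210111 counts. The sources used here do not give the sex or age of the mice or whether a library stands for 1 animal, so p-values measure the spread between libraries. Levels are in CPM, counts scaled to the size of the library after edgeR's TMM factors.

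Purine nucleotides are taken apart in steps. The ectoenzyme CD73, encoded by Nt5e, removes phosphate from AMP outside the cell and releases adenosine, adenosine deaminase (Ada) turns adenosine into inosine, and purine nucleoside phosphorylase (Pnp) releases hypoxanthine. Xdh then oxidises hypoxanthine to xanthine and xanthine to uric acid, and in its oxidase form passes electrons to oxygen, whereas Hprt returns hypoxanthine and guanine to the nucleotide pool. Aox1 is an aldehyde oxidase, a relative of Xdh that uses the same molybdenum cofactor. In mice uric acid is broken down further by urate oxidase (Uox), an enzyme of the liver, and hepatocytes also contain Xdh.

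Sequence sets how well the counts of these genes can be told apart. Coordinates are of GRCm38, the assembly of mm10, from GENCODE M21. Xdh lies on chromosome 17 (73883895 to 73950196, minus strand). Its longest coding transcript, Xdh-201, is 4600 bases long, and none of its 4551 words of 50 bases occurs in a transcript of another gene. The shared words of the locus, 9.6% of all, lie in its other transcripts. The coding sequence of Xdh is 64% identical to that of Aox1 (chromosome 1, 58029931 to 58106413) over aligned bases, with no identical run longer than 17 bases. Hprt (chromosome X, 52988137 to 53021659) and Ada (chromosome 2, 163726584 to 163750239) shared no word with another gene, and Nt5e (chromosome 9, 88327197 to 88372092) shared 0.128% of its words. Pnp (chromosome 14, 50931082 to 50965237) is different, because its copy Pnp2 lies within its annotated span, at 50955992 to 50964749. The coding sequences of Pnp and Pnp2 are 98.2% identical, with an identical run of 292 bases. The 60 coding bases with most differences, in exon 6 of both genes, are shown to make clear how few bases separate them. Capitals mark the 7 bases that differ.
Pnp, chr14:50951558-50951617, plus strand: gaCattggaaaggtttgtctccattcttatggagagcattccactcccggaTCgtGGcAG
Pnp2, chr14:50964410-50964469, plus strand: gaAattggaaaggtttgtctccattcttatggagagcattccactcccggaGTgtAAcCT
Of the counts assigned to this pair of genes, Pnp2 took between 6.62% and 8.81% in each of the 10 libraries. How reads with several alignments were counted is not given in the sources used here, so the division between Pnp and Pnp2 is uncertain. In addition, 870 exonic bases of Pnp are overlapped by the gene models Gm38316, on the opposite strand, and Gm49342, on the same strand.

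AHR binds DNA with its partner ARNT at a core read as GCGTG, or CACGC on the other strand. Promoter windows from 250 bases before to 50 bases after the start site were taken from RefSeq (GRCm38.p6), which had entries for Aox1, Hprt, Pnp, Ada and Nt5e and none for Xdh. The core was found on either strand in 3 of these 5 genes, Aox1, Ada and Nt5e, and in 32.4% of the 32851 windows of all genes. The match nearest the start site of each gene is printed below beside that of Cyp1a1, the classical AHR target, with the core in capitals. The windows of Hprt and Pnp held no match. Distances are from the RefSeq start site. That of Nt5e lies downstream of the start of its GENCODE span given above, so the match printed for Nt5e falls within that span. A match is a description of letters and not of binding. Cores farther than 250 bases before a start site are left out. The match of Cyp1a1 was not compared with the region of that gene where the paper measured AHR recruitment.
Aox1, chr1:58029822-58029846, plus strand, 137 bases before the start site: gcttgtctccCACGCtggcacactc
Nt5e, chr9:88327461-88327485, plus strand, 138 bases before the start site: cctgcgggctGCGTGtgctgggcca
Ada, chr2:163750224-163750248, minus strand, 1 base after the start site: tgtgggcgtaGCGTGggcggggctg
Cyp1a1, chr9:57697549-57697573, plus strand, 54 bases before the start site: agataaggagGCGTGgccaacagac

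Before the members, the libraries were checked. Cyp1a1 rose from 26.8 ± 12.8 CPM to 255 ± 92.4 CPM with FICZ (SD, n = 5 each), with an adjusted p of 0.0189 in edgeR. Markers of ASPCs such as Pdgfra, Dcn and Col1a1 summed to between 10428 and 15547 CPM in every library. The markers of other cells summed to less: 12 immune genes to between 25.9 and 57.5 CPM, 10 endothelial genes to between 68.8 and 92.5 CPM, 6 mesothelial genes to between 64.9 and 85.8 CPM and 8 genes of mature adipocytes to between 27.1 and 63.2 CPM. The exception was a list of 21 hepatocyte genes led by Alb, which made up between 0.196% and 1.24% of the counts, and none of the 21 was at 0. This list summed to between 1981 and 11843 CPM in DMSO and between 2096 and 2867 CPM in FICZ, and its highest value was that of DMSO replicate 5. Each member was therefore also compared with Alb across the libraries.

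Xdh was the member that separated the groups. In DMSO its 5 libraries had 572, 581, 575, 672 and 523 CPM, in the order of replicates 1 to 5. In FICZ they had 713, 731, 706, 792 and 822 CPM. Every FICZ library lay above every DMSO library, and the lowest FICZ value was 34.3 CPM above the highest DMSO value. The groups lay apart in this direction for 0.351% of the 14251 genes tested, a background from which nothing is read for Xdh, because this contrast chose it.

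Xdh averaged 584 ± 54.2 CPM without and 753 ± 51.3 CPM with the ligand (SD over 5 libraries each). On the log2 scale the rise was 0.37 with a standard error of 0.09, or 1.29-fold. Because the groups did not overlap, all 5 pairs of libraries with the same number had to show the rise. It was between 0.24 and 0.65 on the log2 scale. The smallest difference was in pair 4, where the DMSO library had the highest value of its group, and the largest was in pair 5. Leaving out any single library kept the log2 fold change of Xdh between 0.32 and 0.42, which describes the same libraries that chose it. For scale, Ahrr, which encodes the AHR repressor, had a log2 fold change of 1.66, and Tiparp, an ADP-ribosyltransferase gene induced through AHR, one of 0.91.

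**Figure D1:**
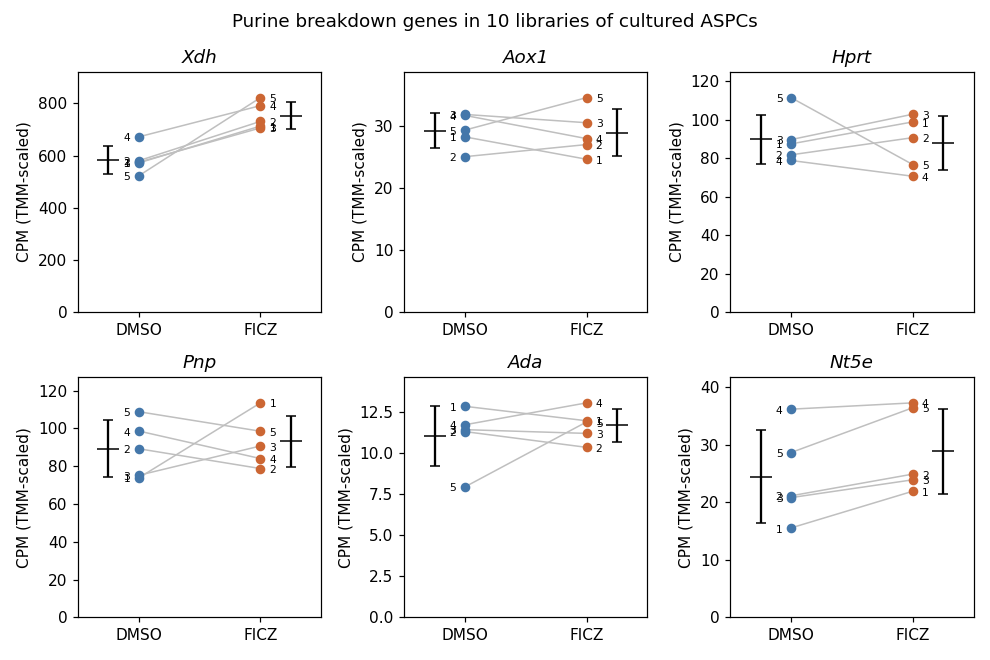
Level of each member in CPM (TMM-scaled, axes from 0) in the 5 DMSO libraries (blue) and the 5 FICZ libraries (orange); grey lines join libraries with the same replicate number, printed beside each point, and black bars give mean ± SD. For Xdh all FICZ points, from 706 to 822 CPM, lie above all DMSO points, and for the other 5 genes the groups overlap.

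Nt5e stood at the entry of the pathway and was the most variable member. It had 15.6, 21.1, 20.8, 36.2 and 28.7 CPM in DMSO replicates 1 to 5. In FICZ the values were 21.9, 24.9, 23.9, 37.3 and 36.4 CPM. The groups overlapped over most of their range, yet the FICZ library was higher in all 5 same-numbered pairs, by between 0.04 and 0.49 on the log2 scale. Replicates 4 and 5 had the 4 highest values, 2 in each group. The estimate for Nt5e, 0.24 on the log2 scale with a standard error of 0.23, did not pass in edgeR's quasi-likelihood test (adjusted p = 0.999 over all genes; exact two-sided permutation test, p = 0.341), and its 95% interval reached from -0.26 to 0.74. These 2 tests did not use the replicate number. With that number as a block the estimate for Nt5e was 0.26 (standard error 0.08, adjusted p = 0.929 in edgeR).

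Ada, the next step, was counted at low level. The DMSO libraries had 12.8, 11.3, 11.4, 11.7 and 7.94 CPM. The FICZ libraries had 12.0, 10.4, 11.2, 13.1 and 11.9 CPM. Apart from the low value in DMSO replicate 5 the groups covered the same range, and FICZ was higher in 2 of the 5 pairs. The log2 fold change of Ada was 0.08 (standard error 0.13, adjusted p = 0.999 in edgeR; exact permutation p = 0.579) with a 95% interval from -0.20 to 0.36, and without DMSO replicate 5 it was -0.02.

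Pnp, which follows Ada, had 73.9, 89.3, 75.2, 98.6 and 109 CPM in DMSO. It had 114, 78.8, 90.7, 84.1 and 98.5 CPM in FICZ. Replicate 1 held both the lowest value, in DMSO, and the highest, in FICZ, and FICZ was higher in 2 of the 5 pairs. The log2 fold change of Pnp was 0.06 (standard error 0.13, adjusted p = 0.999 in edgeR; exact permutation p = 0.635), with an interval from -0.22 to 0.35. Its copy Pnp2 averaged 7.14 ± 1.66 CPM without and 7.85 ± 1.38 CPM with the ligand. The log2 fold change of Pnp2 was 0.14 (standard error 0.18), and the 2 genes share identical stretches as shown above.

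Hprt, the salvage enzyme, had 87.5, 81.8, 89.7, 78.9 and 112 CPM in DMSO. In FICZ it had 98.9, 90.7, 103, 70.7 and 76.8 CPM. The highest value was in DMSO replicate 5 and the FICZ library of that pair was lower by 0.54 on the log2 scale, while in pairs 1, 2 and 3 FICZ was higher. The log2 fold change of Hprt was -0.03 (standard error 0.13, adjusted p = 0.999 in edgeR; exact permutation p = 0.802), with an interval from -0.31 to 0.24.

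Aox1 had 28.2, 25.0, 31.8, 31.7 and 29.3 CPM in DMSO. It had 24.6, 27.0, 30.5, 27.9 and 34.5 CPM in FICZ. Its values spanned 1.4-fold over the 10 libraries, the narrowest range of the members, and FICZ was higher in 2 of the 5 pairs. The log2 fold change of Aox1 was -0.01 (standard error 0.11, adjusted p = 0.999 in edgeR; exact permutation p = 0.841), with an interval from -0.24 to 0.22. The difference between Aox1 and Xdh, which this contrast chose, was not tested.

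Of the 5 members besides Xdh, 0 reached an adjusted p of 0.05 in edgeR's quasi-likelihood test, where 0.0211% of the 14251 genes tested did. Before adjustment, 0 of these 5 had a p up to 0.05 in that fit, which did not use the replicate number, against 4.82% of all genes. DESeq2 also placed 0 of the 5 past the threshold, against 0.0845% of the genes to which it gave an adjusted p. With the replicate number as a block neither edgeR, which then called 0.0561% of genes, nor DESeq2, which called 0.14%, placed any of the 5 past it. Xdh is left out of these counts because the same contrast chose it.

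**Figure D2:**
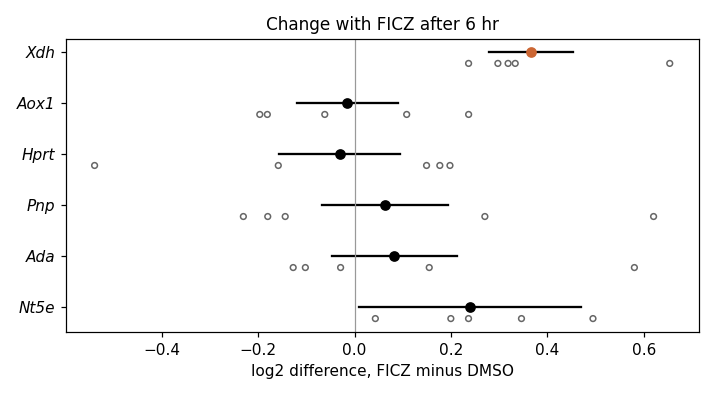
Log2 difference between FICZ and DMSO for each member: filled points are edgeR estimates with bars of ± 1 standard error, and open circles below them are the differences within the 5 same-numbered pairs. Xdh (orange) lies at 0.37 with all pairs above 0, which follows from its groups not overlapping. Nt5e lies at 0.24 with all pairs above 0 and a wider error, and Aox1, Hprt, Pnp and Ada have pairs on both sides of 0.

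Levels between genes were compared per kilobase of exon. In DMSO, Hprt had 69.7 ± 9.98 CPM per kilobase and Xdh 63.7 ± 5.9, which placed them above 95.3% and 94.9% of the 14026 genes with a length. These neighbours did not differ beyond their spread. Pnp followed with 22.4 ± 3.78 CPM per kilobase, then Ada with 5.52 ± 0.92, Aox1 with 3.36 ± 0.323 and Nt5e with 2.84 ± 0.935. Aox1 and Nt5e did not differ beyond their spread. In FICZ, Xdh had 82.1 ± 5.59 CPM per kilobase and Hprt 68.3 ± 10.8. The annotated exons of Xdh (9175 bases) include retained introns, and per kilobase of its coding transcript Xdh had 127 ± 11.8 CPM in DMSO, above the 69.7 of Hprt. On that scale Aox1 (6.61), Ada (6.55) and Nt5e (6.13) were nearly level. Xdh was thus an abundant transcript of these cultures without the ligand.

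Xdh did not follow Alb. Alb ranged from 682 CPM in FICZ replicate 4 to 4782 CPM in DMSO replicate 5, a 7.01-fold span, whereas Xdh spanned 1.57-fold and had its lowest value in DMSO replicate 5. A model of treatment and the log2 CPM of Alb gave Xdh a slope of -0.05 (standard error 0.06, adjusted p = 0.598 in edgeR) with a 95% interval from -0.18 to 0.08, where a slope of 1 stands for a gene that changes in proportion to Alb. With Alb in that model, the log2 fold change of Xdh with FICZ was 0.33 (standard error 0.10). Aox1 had a slope of 0.02 (standard error 0.07, adjusted p = 0.872), with an interval from -0.14 to 0.18. None of the 6 members passed in this test, while 8.84% of genes tested had a positive and 4.11% a negative slope past the threshold. Before adjustment, 0 of 6 members had a p up to 0.05, against 32.1% of all genes.

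The 4 other members had intervals that ended below 1 as well. The slope was 0.15 for Hprt (interval -0.00 to 0.30), 0.15 for Pnp (-0.02 to 0.31), -0.15 for Ada (-0.33 to 0.02) and 0.09 for Nt5e (-0.25 to 0.44). Hprt passed when the replicate number entered as a block, with a slope of 0.24 (standard error 0.06, adjusted p = 0.0261 in edgeR), a fit in which 6.12% of genes had a positive slope past the threshold. It was the sole member that did so. Without DMSO replicate 5, which alone carries Alb above 1921 CPM, the slope of Hprt was 0.08, that of Ada 0.04 and that of Xdh 0.03, none past the threshold.

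**Figure D3:**
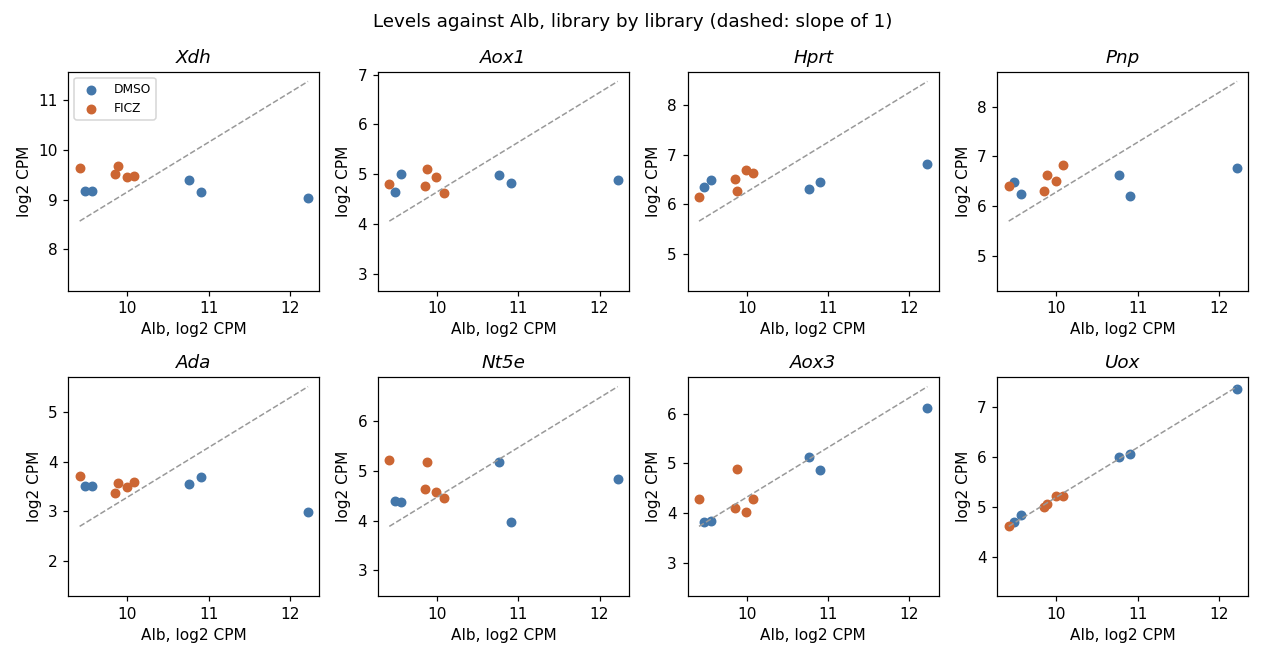
Log2 CPM of each member, and of Aox3 and Uox, against log2 CPM of Alb in the 10 libraries (DMSO blue, FICZ orange); every panel spans the same height and the dashed line has a slope of 1. Uox runs along the line with a slope of 0.96, Aox3 follows it more loosely with 0.80, and the 6 members lie flat, with slopes between -0.15 and 0.15.

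The liver end of the pathway behaved differently. Uox, which oxidises uric acid, had 67.1, 25.9, 28.7, 64.1 and 166 CPM in DMSO and 37.0, 32.0, 37.1, 24.3 and 33.2 CPM in FICZ. Its counts kept a nearly fixed ratio to Alb: 35.7 ± 1.19 counts of Uox (SD, n = 10) were found per 1000 counts of Alb, a 1.11-fold range. Xdh ranged from 109 to 1161 counts per 1000 of Alb. The slope of Uox on Alb was 0.96 (standard error 0.04, adjusted p = 1.2e-08 in edgeR) and it was 0.96 without DMSO replicate 5 and 0.99 without both libraries farthest from the median of Alb.

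Urah and Urad, which act downstream of Uox, had slopes of 0.93 (standard error 0.08) and 0.82 (standard error 0.19), both past the threshold (adjusted p = 4.59e-06 and 0.0156 in edgeR). Urad was thin, with between 12 and 94 counts, and without DMSO replicate 5 it no longer passed (adjusted p = 0.438). The 3 genes were lower with FICZ on average, Uox by a log2 value of -1.10 (standard error 0.43), Urah with -1.06 and Urad with -1.03 (adjusted p = 0.999 each in edgeR), as was Alb with -1.09 (standard error 0.45). With Alb in the model these values were -0.06 for Uox (standard error 0.07), -0.07 for Urah (0.14) and -0.22 for Urad (0.34). In the same fit without a covariate, 20 of the 21 hepatocyte genes were lower with FICZ at an unadjusted p of 0.05 or less, and none passed after adjustment. Of all genes tested, 4.82% had such an unadjusted p in either direction. In the hepatocyte list 20 genes also had a positive slope on Alb past the threshold, so these are not separate results. Alb had 4782, 1921 and 1740 CPM in DMSO replicates 5, 1 and 4, but 713 and 756 CPM in DMSO replicates 2 and 3. Exact permutation gave p = 0.183 for Alb and 0.151 for Uox, and each was higher with FICZ in 2 of the 5 pairs.

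Aox3, the aldehyde oxidase next to Aox1 on chromosome 1 (58113130 to 58200698) and abundant in mouse liver, parted from its neighbour. Aox3 had 28.9, 14.1, 14.3, 34.9 and 68.8 CPM in DMSO and 19.3, 17.1, 16.2, 19.5 and 29.4 CPM in FICZ. Its slope on Alb was 0.80 (standard error 0.12, adjusted p = 0.000573 in edgeR), with an interval from 0.54 to 1.05 that does not meet that of Aox1. Without DMSO replicate 5 the slope of Aox3 was 0.75 and no longer passed (adjusted p = 0.138). With the replicate block it was 0.55 (adjusted p = 0.000126). In FICZ replicates 4 and 5 Aox3 reached 28.6 and 31.2 counts per 1000 of Alb, against 14.4 to 20.0 in the other libraries. The coding sequences of Aox1 and Aox3 are 68.3% identical with no identical run over 20 bases, so 50-base words of Aox3 did not occur elsewhere. Aox2 had at most 4 and Aox4 at most 8 counts in any library, and changes of these 2 genes were not detectable at this depth.

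The wider purine network was described with 71 genes in 7 lists, of which 59 were tested. Of the 53 tested that are not members, 0 passed the threshold with FICZ in edgeR or in DESeq2. Before adjustment 5 of the 53, all with a lower mean, had a p up to 0.05 in edgeR, against 4.82% of all genes tested. The median log2 fold change of the 53 was 0.03, against 0.01 over all genes tested. Of 13 genes tested that build purines from the start, from Prps1 to Impdh2, 12 had a higher mean with FICZ, with a list median of 0.07, where 7666 of the 14251 genes tested were higher. The exception, Adssl1, was the sole gene of the list with a lower mean, by a log2 value of -0.67 (standard error 0.30). With Alb in the model Adssl1 (-0.18), Gart (-0.01), Pfas (-0.09), Impdh1 (-0.03) and Adss (-0.003) were below 0, and the other genes of the list stayed above it. The median slope of the list on Alb was -0.08, and whether Alb bears on the direction was not tested. Enzymes that deaminate or split nucleosides were also close to 0, with 8 of 8 between 0.02 and 0.14, and Ampd3, an AMP deaminase and the most abundant of them, averaged 332 ± 49.0 CPM without and 359 ± 71.1 CPM with the ligand.

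The cofactor genes on which Xdh and Aox1 depend did not pass the test either. Mocs1, Mocs2, Mocs3 and Gphn, which build the molybdenum cofactor, and Mocos, which adds sulphur to it for Xdh and the aldehyde oxidases, had log2 fold changes of 0.04, 0.10, 0.02, -0.00 and 0.05, each within its standard error or close to it (adjusted p = 0.999 or more in edgeR). Suox, sulphite oxidase, had a log2 fold change of -0.23 (standard error 0.13). Of the salvage genes Adk, adenosine kinase, had the smallest unadjusted p (0.136) and a log2 value of -0.20 (standard error 0.13). Of 13 genes tested that act on nucleotides outside or inside the cell, Entpd8 had the smallest p (0.0366) and a log2 value of -1.17 (standard error 0.49). Of 8 transporters and adenosine receptors tested, Adora1, an adenosine receptor gene, had the smallest (0.0356) with -1.29 (standard error 0.54). Entpd8 and Adora1 had slopes on Alb of 1.02 and 1.11 and, with Alb in the model, log2 fold changes of -0.09 and 0.01.

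Among the 53 purine genes tested outside the members, 11 had a positive slope on Alb past the threshold and 1, Gart, a negative one. Over all genes tested the shares were 8.84% and 4.11%. Besides Uox, Urah, Urad, Aox3, Entpd8 and Adora1 the positive slopes were those of Adssl1 (0.52), Slc2a9 (0.45), Suox (0.23), Adk (0.22) and Abcg2 (0.19). The 4 genes Uox, Urah, Entpd8 and Adora1 passed without DMSO replicate 5 and 7 genes passed without DMSO replicate 2 or without DMSO replicate 3, and without both libraries farthest from the median of Alb Uox alone did.

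**Figure D4:**
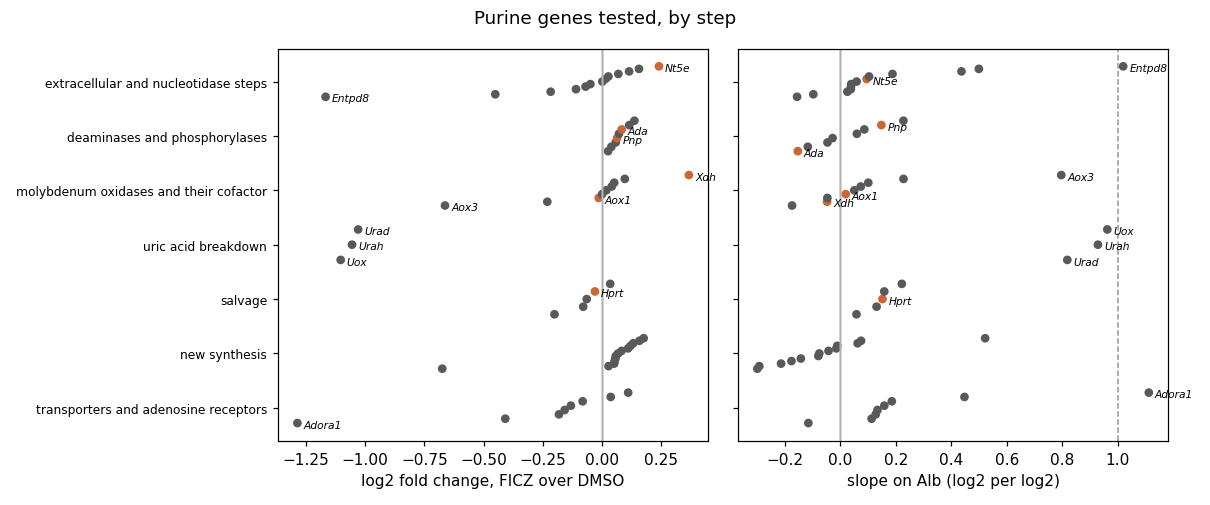
Each point is 1 of the 59 purine genes tested, arranged by step of the pathway, with members in orange; the left panel gives the log2 fold change of FICZ over DMSO and the right panel the slope on Alb, with a dashed line at 1. Most genes lie near 0 in both panels, Xdh is the rightmost point on the left at 0.37, and Uox, Urah, Urad, Aox3, Entpd8 and Adora1 lie low on the left and between 0.80 and 1.11 on the right.

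The genes most like Xdh were looked up over the 10 libraries. By Pearson correlation of log2 CPM these were Sgcb (0.96), Adcy7 (0.94), Gpc1 (0.92), Dhx40 (0.92) and Wdr91 (0.91). After the mean of each treatment group was taken off they were Skiv2l (0.99), Klhl17 (0.99), Pygb (0.98), AF357359 (0.97) and Scn8a (0.97), and no gene was on both lists. These are the highest of 14250 values over 10 libraries of 2 groups, and are given as a description. Among the members on the second scale Xdh and Hprt ran opposite (-0.86), Xdh and Nt5e together (0.62), and Pnp went with its copy Pnp2 (0.87). The opposite course of Xdh and Hprt is seen in the libraries themselves, since replicate 5 held the lowest Xdh and highest Hprt in DMSO and the highest Xdh and second lowest Hprt in FICZ. In bulk libraries a change in the share of a cell type and a change of RNA per cell cannot be told apart.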

How the data were processed

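RNA of cultured ASPCs (5 DMSO and 5 FICZ libraries) was sequenced. The authors aligned reads with STAR 2.7.7 to mm10 and deposited the raw counts of each gene symbol. The counting program, annotation and strand setting are not given in the sources used here. Totals were 38328611 to 50210111 counts per library, so 3 counts correspond to at most 0.0783 CPM. That floor covers counting error only, and the 95% intervals of fold changes and slopes, from edgeR, cover the spread between libraries. Replicates differed by more than sampling noise.

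EdgeR 4.0.16 (R 4.3.3) was used with TMM factors, its filter by expression, robust quasi-likelihood tests and Benjamini-Hochberg adjustment over all genes tested (14251; 14250 for Alb slopes, without Alb itself). The threshold was 0.05. Log2 CPM used a prior count of 2, and single genes other than Xdh were compared by exact two-sided permutation over 252 arrangements. DESeq2 1.42.0, the study's tool, other scalings, no filter, leaving out each library and a replicate block were alternatives. The edgeR fits, the DESeq2 fit without a block and the slope on Alb were tried on simulated counts, and the other steps were not.

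Deviations from group means correlated in every same-numbered pair (0.15 to 0.32), so the numbers appear to pair the libraries. The mean between different numbers was -0.06. It is no separate baseline, because deviations sum to 0 within each group. The main edgeR fit and the exact permutation did not use the number. Their p-values therefore include the spread between replicate numbers, which the fits with a block take out. The paper does not say what the number marks.

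Members, lists and tests were chosen with earlier results of these data known. Named genes were the members, their paralogs, the purine gene of each list with the smallest p and those past the threshold, the genes most like Xdh, and Alb. Lengths, overlaps and 50-base words on either strand were taken from GENCODE M21.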

Additional observations from a re-analysis of the deposited data

Results flagged for a closer look

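A single library lay far from the rest in 1 of 20 groups of 5 libraries examined for the members, Alb, Uox, Aox3 and Pnp2, where chance gives about 1. Ada was lowest in DMSO replicate 5, with 7.94 CPM against 11.3 to 12.8 CPM in the others, and the gap to the nearest library was 0.735 of the whole range of the group in log2 CPM. The same library had the highest Alb (4782 CPM) and the highest Hprt (112 CPM) of all libraries.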

How the results depend on the processing

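The rise of Xdh stayed between 0.32 and 0.42 on the log2 scale under all 17 alternatives, and that of Nt5e stayed above 0 in all 17, from 0.10 to 0.42. The other members lay close to 0 and changed sign without passing a test: with Alb in the model Hprt was 0.084 and Ada -0.026, and without 1 library each the ranges were -0.10 to 0.039 for Aox1, -0.092 to 0.059 for Hprt, -0.018 to 0.14 for Pnp and -0.016 to 0.13 for Ada. The number of genes called with FICZ was 3, and 16 with DESeq2, 8 with the replicate block, 26 with both and 1 to 4 without 1 library, with 1 left without DMSO replicate 1 or 2 or FICZ replicate 1, 2 or 3. The number of purine genes called was 0, and 1 with DESeq2, which was Xdh, the gene that this contrast chose, and 0 with DESeq2 and the block. The number of genes with a slope on Alb was 1844 in both directions. It was 238 without both libraries farthest from the median of Alb and 396 to 3330 without 1 library, with the lowest value without DMSO replicate 5, the highest without DMSO replicate 1, 1080 without DMSO replicate 2 and 862 without DMSO replicate 3. With the replicate block the slope was -0.037 for Aox1, -0.021 for Nt5e and, past the threshold, 0.24 for Hprt. Without both farthest libraries that of Xdh was 0.057. Without 1 library slopes ranged from -0.073 to 0.032 for Xdh, -0.048 to 0.070 for Aox1 and -0.20 to 0.041 for Ada. The cause of these shifts was not tested. The replicate block changed no other call of a member in edgeR. The slopes of genes outside the members under these alternatives were added after the data were seen. Changes of about 0.2 in either direction on the log2 scale lie within the 95% intervals of the members other than Xdh, and that of Nt5e reached 0.74. The smallest change that would pass after adjustment was not determined and lies higher. Cyp1b1, a known AHR target, had a log2 fold change of 0.62 and did not pass in edgeR (adjusted p = 0.147). It did pass in DESeq2 (adjusted p = 3.33e-05), and the paper, which used DESeq2, reported it as upregulated.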
